A study of Mus musculus with 4 samples.

Results

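The genes described here are 10 mouse genes that report on or restrain signalling through the kinase ERK. They are the MAP kinase phosphatase genes Dusp4, Dusp6 and Dusp9, the Sprouty genes Spry1, Spry2 and Spry4, the Sprouty-related gene Spred1, the ETS transcription factor genes Etv1 and Etv4, and the immediate early gene Egr1. They were chosen by name, with earlier results of these data known, out of 18193 genes with a probe set of their own on the arrays. In all, 26 probe sets carried their symbols. Of the 10 genes, 9 had at least 1 probe set listed under that gene alone and entered the counts. All 3 probe sets of Etv1 were listed together with the pseudogene Gm5454, so their values are given under both names and were not counted. Of the counted genes, Spry4 and Egr1 lie on mouse chromosome 18 and Dusp9 on X, and the others on a chromosome each.

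The series measured RNA from 4 mouse cell cultures on Affymetrix expression arrays, with 1 array per group. Germline stem (GS) cells, a long-term culture of spermatogonial stem cells, and GS cells of a Trp53 knockout, whose title adds ICR, were grown in a GS cell medium modified from StemPro-34. Multipotent germline stem (mGS) cells, an ES-like type of cell that arises from GS cultures, and the embryonic stem (ES) cell line R1 were grown in a standard ES cell medium. Medium and cell type therefore changed together between these pairs of cultures and cannot be told apart. The labels give no age, no strain for the GS and mGS cells and no number of animals or clones, and Trp53 itself was not analysed here.

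ERK is the last kinase of a cascade that runs from receptor tyrosine kinases through Ras, Raf and MEK. Its activity switches on genes whose products slow the same cascade: Dusp proteins remove phosphate from MAP kinases, and Sprouty and Spred proteins act near Ras and Raf. In mouse ES cells FGF4 is a main source of ERK activity and prepares the cells for differentiation, while spermatogonial stem cells in culture depend on GDNF and FGF2, whose receptors also feed into ERK. Transcripts of this group are therefore often read as a record of recent ERK activity, which was itself not measured on these arrays.

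Each value below is a signal in arbitrary units, quantile normalized over the 4 arrays, from the probe set with the highest mean of a gene. The array median, a signal of 82.7, served as a floor. Values below this floor were set to it before a difference was taken, and such a difference is a bound, written as at least N-fold. A gene counted as higher or lower when its difference reached 2-fold, which is 1 on the log2 scale. With 1 array per group, differences have no replicate check and no p-value, and signals of different probe sets are not compared with each other.

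The labels were checked against cell markers. All 6 germ cell markers were above the floor on the GS, knockout and mGS arrays, and 3 on ES. Their summed signals were 73068 on GS and 78323 on the knockout, against 3475 on mGS and 1298 on ES. All 6 pluripotency markers were above the floor on mGS and ES, 2 on GS and 3 on the knockout. Their summed signals were 43032 on mGS and 31962.5 on ES, against 1487 on GS and 1609 on the knockout. All 8 fibroblast markers were above it on the ES array, 5 on GS, 6 on mGS and 6 on the knockout. Their summed signal was 23355 on ES, against 999 on GS, 1592 on mGS and 2125 on the knockout. On the knockout array the hybridisation control bioC read 602 and bioB 676, against 3066 to 3499 and 1083 to 1213 on the other arrays. The added poly-A control dap separated GS and mGS, at 271 and 255, from ES and knockout, at 2545 and 3055. The comparisons of ES with mGS and of the knockout with GS cross this division, and that of mGS with GS does not. The 3′ to 5′ signal ratio of Actb lay between 1.31 and 1.51 on the 4 arrays.

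The knockout array had the lowest signal for 7 of the 9 counted genes, and the share of all genes lowest on it was not counted. Against GS, 6 of 9 were at least 2-fold lower there and none was higher, where 6.93% of all 11623 genes compared were lower and 9.77% higher. With the probe sets of a gene averaged, 5 of 9 were lower, without Spry4. The median log2 difference of the 9 genes was -1.28, and that of all genes was 0.07. Fewer of the 9 genes were 2-fold apart between mGS and GS. There 2 of 9 genes were at least 2-fold higher on mGS, beside 15.3% of all 11981 genes, and 1 was lower, beside 16.5%. Between ES and mGS, none of 9 was higher, beside 6.9% of 11816 genes, and 1 was lower, beside 5.13%. The medians of the 9 genes were -0.42 for mGS against GS and 0.19 for ES against mGS, beside -0.04 and 0.00 for all genes. With so few genes, the counts in these 2 comparisons are not read as different from the shares of all genes. The comparisons of mGS and of the knockout with GS share the GS array.

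**Figure D1:**
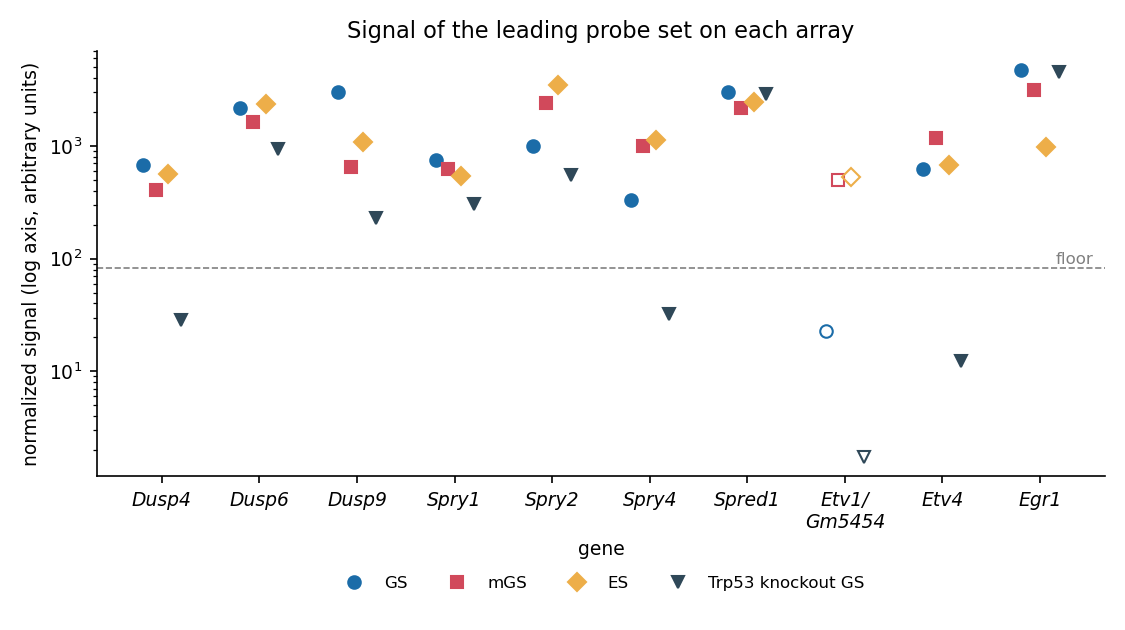
Normalized signal (log axis, arbitrary units) of the leading probe set of each gene on the 4 arrays, with the floor of 82.7 as a dashed line and open symbols for the probe set listed under both Etv1 and Gm5454. The knockout array lies below the other 3 arrays for 7 of 9 counted genes, and under the floor for Dusp4, Spry4 and Etv4. The share of all genes lowest on it was not counted.

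Among the phosphatase genes, Dusp6 encodes a cytoplasmic enzyme selective for ERK and is a widely used readout of the pathway. It gave a signal of 2167 on GS, 1619.5 on mGS, 2358 on ES and 940.1 on the knockout. The first 3 arrays lay within 2-fold of each other, and the knockout stood below them, 2.31-fold under GS. Dusp4 encodes an inducible nuclear phosphatase. Its signal was 681 on GS, 408.5 on mGS, 560.1 on ES and 28.4 on the knockout. GS, mGS and ES again lay within 2-fold, while the knockout array was under the floor and so at least 8.24-fold below GS. Each of these genes had 1 probe set, so neither value could be set against another.

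Dusp9 encodes an X-linked phosphatase of the same cytoplasmic kind as Dusp6 that is abundant in mouse ES cells. It was highest in the GS culture. Its leading probe set read 3020.2 on GS, 654 on mGS, 1089 on ES and 229 on the knockout, so that no other array came within 2-fold of GS. It was 4.62-fold lower on mGS than on GS and 13.2-fold lower on the knockout, and 1.66-fold higher on ES than on mGS. The other 2 probe sets gave the same order of GS, ES, mGS and knockout. Across the 3 probe sets the log2 difference ran from -2.36 to -2.21 for mGS against GS and from -3.72 to -2.92 for the knockout against GS. Dusp9 was the gene of the group that was at least 2-fold lower on mGS, and the alternatives in processing left it so.

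The Sprouty genes differed from each other between the media. Spry1 had a signal of 748 on GS, 621 on mGS, 540.4 on ES and 309 on the knockout. GS, mGS and ES lay within 2-fold and the knockout was 2.42-fold below GS. Spry2 read 1005 on GS, 2416 on mGS, 3479 on ES and 555 on the knockout. Both arrays of the ES medium lay above both arrays of the GS medium, by 2.40-fold at the closest pair, which is mGS over GS. The knockout was 1.81-fold below GS, within the 2-fold threshold. A second Spry2 probe set was under the floor on all arrays, and in the mean of both the difference of mGS from GS dropped to a log2 value of 0.58.

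Spry4 had a signal of 330.05 on GS, 990.1 on mGS, 1126 on ES and 32.5 on the knockout. The ES medium arrays were again above the GS medium arrays, by 1.58 on the log2 scale at the closest pair, and the knockout was at least 3.99-fold below GS. All 4 Spry4 probe sets were at least 2-fold higher on mGS than on GS, with log2 differences from 1.55 to 2.04. On the knockout all 4 lay under the floor, between 22.4 and 42.1. For 2 of the 3 that could be compared the bound passed 2-fold, and with the mean of the 4 probe sets the difference from GS was -0.57 on the log2 scale. By leading probe sets, 2 of 9 counted genes, Spry2 and Spry4, stood at least 2-fold higher in all pairs of an ES medium with a GS medium array. The share of all 12897 genes was 7.65%. None of 9 stood lower, beside 8.38%. The other Spry4 probe sets differed for ES against GS. One read 769 on ES and 294 on GS, past 2-fold. Another read 201 and 134, and the last 150 with GS under the floor, both short of 2-fold. All 3 were lower on ES than on mGS, unlike the leading one.

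Spred1 encodes a membrane-bound inhibitor that recruits the Ras GTPase-activating protein neurofibromin. Its leading probe set was close to level, with 3008 on GS, 2171 on mGS, 2465 on ES and 2901 on the knockout, and its largest gap was 1.39-fold. Other probe sets of the gene did not follow it. A further probe set also stayed within 2-fold, with 2080.2, 1653, 1901 and 1439 in the same order of arrays. The 4 others above the floor on at least 1 array had the order of Spry2, with ES highest and the knockout lowest. Of these, 1 read 149 on GS, 378 on mGS, 482 on ES and 57.1 on the knockout. Over these 4 the log2 difference of mGS from GS ran from 0.72 to 1.34, and that of the knockout from GS from -1.40 to -0.58, including bounds. The other 2 of the 8 Spred1 probe sets were under the floor everywhere. For mGS against GS, Spred1 therefore had no common direction over its probe sets. For the knockout against GS all 6 that could be compared were lower, from -1.40 to -0.05 on the log2 scale, including bounds. For ES against mGS all 6 were higher, from 0.05 to 0.67. Where each lies in the transcript was not used here.

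**Figure D2:**
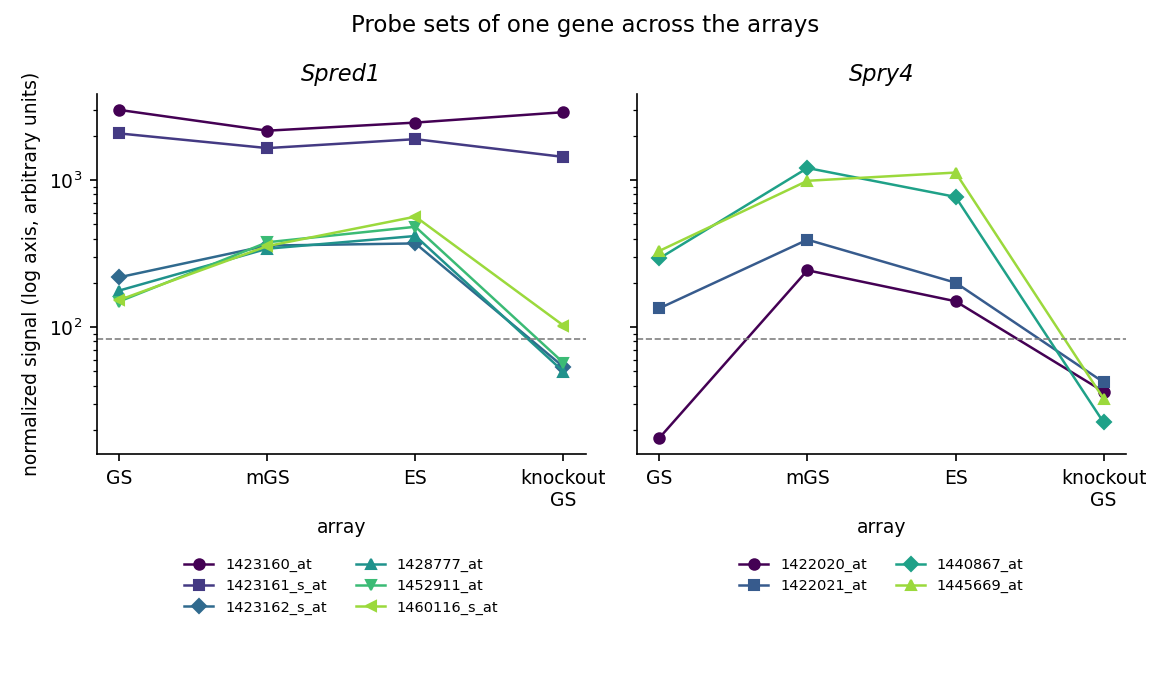
Normalized signal (log axis, arbitrary units) on each array for the probe sets of Spred1 and Spry4 that were above the floor (dashed line) on at least 1 array, with a line joining the values of a probe set. For Spred1, 2 probe sets stay within 2-fold while 4 others are higher on mGS and ES than on GS and lowest on the knockout, and all 4 Spry4 probe sets are higher on mGS than on GS.

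Etv4 encodes an ETS factor of the PEA3 group that is induced by FGF and GDNF signalling. Its leading probe set read 618 on GS, 1176 on mGS, 672 on ES and 12.3 on the knockout. GS, mGS and ES lay within 2-fold, with mGS 1.90-fold above GS, and the knockout was under the floor and at least 7.48-fold below GS. The other Etv4 probe set had the same order, at 141, 260.02, 205 and 44.5, and its bound for the knockout was 1.71-fold. The closely related gene Etv5, which is needed for self-renewal of spermatogonial stem cells, had the same order of arrays. It read 1955 on GS, 6360.2 on mGS, 4617 on ES and 507 on the knockout, which is a log2 difference of 1.70 for mGS against GS and of -1.95 for the knockout against GS.

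Etv1 is the third member of the PEA3 group. The 3 probe sets listed under Etv1 and Gm5454 together cannot be assigned to either name. The leading one read 22.8 on GS, 497 on mGS, 529 on ES and 1.74 on the knockout. It was above the floor on the ES medium arrays and under it on the GS medium arrays, at least 6.01-fold apart for mGS against GS. Another read 1.63, 566, 414 and 5.08 in the same order of arrays, and the last was under the floor throughout. If these were counted as Etv1, the genes at least 2-fold higher on mGS than on GS would number 3 of 10.

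Egr1 encodes a zinc finger factor that is transcribed within minutes of ERK activation, through serum response factor and its ETS partners. It stood apart from the rest of the group. Its probe set read 4717 on GS, 3162 on mGS, 973 on ES and 4557 on the knockout. GS and knockout differed by 1.04-fold, mGS lay 1.49-fold below GS, and the ES array was 3.25-fold below mGS. Egr1 was thus lowest on ES, and it was the gene counted as lower there, while the other 8 counted genes lay within 2-fold of mGS. Of its related genes, Egr2 and Egr4 had wider gaps and were under the floor on mGS and ES. Egr2 read 1295 on GS, 332 on the knockout, 41.5 on mGS and 28.4 on ES. Egr4 read 1326, 3182, 51.0 and 59.2 in that order. Egr3 read 387, 208, 31.0 and 142 in that order, and was at least 4.69-fold lower on mGS than on GS. The mGS value was under the floor, so this is a bound and cannot be ranked against the 4.85-fold range of Egr1.

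**Figure D3:**
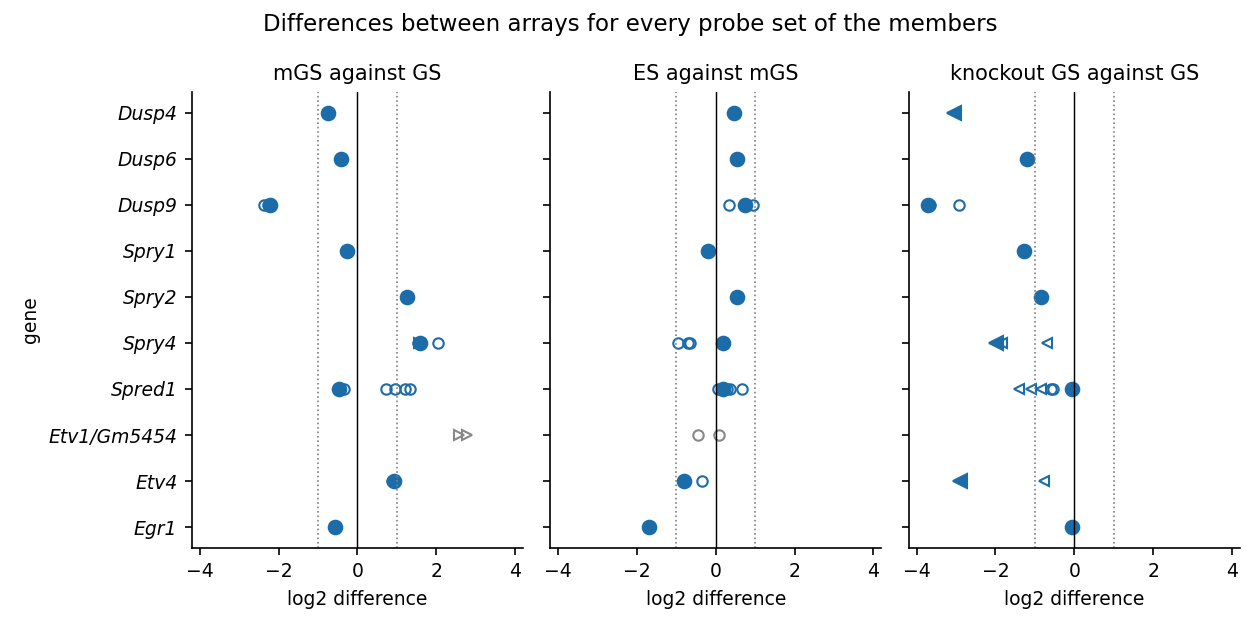
Log2 difference of every probe set of the 10 genes in 3 comparisons, with filled symbols for leading probe sets, open symbols for others, grey for those listed under Etv1 and Gm5454, triangles for bounds and dotted lines at 2-fold. On the knockout against GS panel all leading probe sets lie at or left of 0 and 6 of 9 pass 2-fold, and on the mGS against GS panel Dusp9 lies left while Spry2 and Spry4 lie right.

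Sequence upstream of the gene start is shown for 4 of the counted genes. Dusp6 and Spry1 are the pair of the group with the most similar values over the 4 arrays. Spry2 was higher in the ES medium, and the leading probe set of Spred1 was level. These genes do not cover all patterns above. Dusp9, Egr1 and the genes under the floor on the knockout are not among them. Each window is the 250 bases before the annotated start in RefSeq, build GRCm38.p6, written 5′ to 3′ on the strand of the gene. Capitals mark matches on either strand to the motifs given after the sequences.
Dusp6, chr10:99262981-99263230, plus strand: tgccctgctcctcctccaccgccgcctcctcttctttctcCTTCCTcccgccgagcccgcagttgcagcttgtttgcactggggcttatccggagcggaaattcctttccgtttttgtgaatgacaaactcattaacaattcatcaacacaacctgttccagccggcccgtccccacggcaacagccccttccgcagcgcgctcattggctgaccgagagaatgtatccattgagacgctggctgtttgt
Spry1, chr3:37639697-37639946, plus strand: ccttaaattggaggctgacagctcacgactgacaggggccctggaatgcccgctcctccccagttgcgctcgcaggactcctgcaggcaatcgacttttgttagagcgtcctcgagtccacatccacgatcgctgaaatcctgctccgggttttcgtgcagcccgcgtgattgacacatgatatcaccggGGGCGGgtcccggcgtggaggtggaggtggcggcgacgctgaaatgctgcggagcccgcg
Spry2, chr14:105896820-105897069, minus strand: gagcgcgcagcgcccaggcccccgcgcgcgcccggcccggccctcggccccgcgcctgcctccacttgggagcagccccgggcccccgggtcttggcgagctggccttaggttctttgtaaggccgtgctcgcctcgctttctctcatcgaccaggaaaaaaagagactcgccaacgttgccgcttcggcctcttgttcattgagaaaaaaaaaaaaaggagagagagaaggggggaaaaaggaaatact
Spred1, chr2:117120821-117121070, plus strand: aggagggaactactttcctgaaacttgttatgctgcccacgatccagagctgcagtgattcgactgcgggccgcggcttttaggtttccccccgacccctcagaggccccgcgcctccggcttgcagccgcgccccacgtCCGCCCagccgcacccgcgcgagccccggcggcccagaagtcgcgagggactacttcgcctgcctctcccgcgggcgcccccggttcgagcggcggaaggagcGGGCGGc

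The windows were searched on both strands for 7 motifs. The ETS-type sequence AGGAAG, the kind bound by factors of the PEA3 group, occurred 1 time among the 4 windows, in Dusp6 on the reverse strand, and 29.5% of 32851 windows of the same length in the table held it. The GC box GGGCGG occurred 2 times in Spred1 and 1 time in Spry1, and in 32.7% of all windows. The other motifs had no match in the 4 windows. They were the CArG box of serum response factor, in 1.47% of all windows, the longer ETS site CCGGAAG, in 6.91%, the CRE TGACGTCA, in 1.55%, the AP-1 site TGANTCA, in 6.75%, and TATAAA, in 12.4%. No 2 matches overlapped. The G and C content was 56.4% for Dusp6, 62.4% for Spry1 and for Spry2, and 70.8% for Spred1, beside a median of 52.4%. No window is shown for the other members, and those of Spry4 and Egr1 were not looked up.

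Further genes of the pathway were read from lists. Their counts stand beside the shares of all genes given above. Between mGS and GS 15.3% of all genes were higher and 16.5% lower. On the knockout against GS the shares were 9.77% and 6.93%, and for ES against mGS 6.9% and 5.13%. Of 18 other feedback genes, 14 were compared between mGS and GS, of which 2 were higher by 2-fold or more and 7 were lower, and the median log2 difference was -0.66. Dusp5, a nuclear ERK phosphatase gene, read 1075 on GS and 154 on mGS, the ErbB inhibitor gene Errfi1 3578 and 892, and Lrig1, another brake on receptor kinases, 1337 and 224. The neurofibromin gene Nf1 read 300.2 and 51.3, the latter under the floor, so it was at least 3.63-fold lower on mGS. Etv5 and Dusp16 were the genes that were higher. On the knockout against GS, 4 of 15 were lower and 4 were higher, and their median was 0.14. The lower ones were Dusp7, from 835 to 208, Etv5, Errfi1, from 3578 to 981, and Dusp5, from 1075 to 397. Dusp16, whose product acts mainly on JNK and p38, was the furthest in the other direction, from 328 to 1186, and the stress-induced Dusp1 read 2003 on GS and 4437 on the knockout. Between ES and mGS, 4 of 16 were higher and none was lower, and the median was 0.44.

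The cascade itself was read from a list of its core genes. Of 30 core genes listed, 22 were measured and the others were not analysed here. Of these 22, compared between mGS and GS, 17 lay within 2-fold, 2 were higher and 3 were lower, beside the 15.3% and 16.5% of all genes given above, with a median of 0.12. The exceptions upward were Eras, an ES cell Ras gene, under the floor on GS and at 6084 on mGS, and the docking protein gene Gab1, at 1136 and 7177. Downward they were the RSK2 kinase gene Rps6ka3, at 2072 and 418, Rras, at 2099 and 433, and the exchange factor gene Sos2, at 955 and 324. On the knockout, 19 of 20 lay within 2-fold of GS, with a median of 0.04, and the adaptor gene Frs3 was higher, at 425 against 157. Map2k1, which encodes MEK1, read 3275 on GS, 2946 on mGS, 2752 on ES and 3029 on the knockout. Between ES and mGS, 20 of 22 lay within 2-fold, and Elk3 and Rras were higher on ES.

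Of 25 ligand and receptor genes, 18 were compared between mGS and GS. Of these, 6 were higher by 2-fold or more, beside 15.3% of all genes, and 4 were lower, beside 16.5%. The median was 0.47. The receptor genes of GDNF read 2076 for Ret and 1564 for Gfra1 on GS, 734 and 655 on the knockout, 66.9 and 96.8 on mGS, and 88.7 and 122 on ES. Ret was under the floor on mGS, so it was at least 25.1-fold below GS there. Fgf4, the autocrine ligand of ES cells, read 111 on GS, 431 on mGS, 625 on ES and 54.6, under the floor, on the knockout. Fgfr2 read 89.2, 414, 475 and 121 in that order, and Fgfr1 1166, 783, 701 and 527. On the knockout, 3 of 14 genes were at least 2-fold lower than on GS, beside 6.93% of all genes, namely Ret, Gfra1 and Fgfr1. Only Kit was higher, beside 9.77% of all genes. It read 361 on the knockout and 80.4, under the floor, on GS, so it was at least 4.36-fold higher. The median for the knockout against GS was -0.13. Pdgfra, a receptor gene of mesenchymal cells, read 388 on GS, 55.4 on mGS, 376 on ES and 351 on the knockout. It was under the floor on mGS, the low array, and the other 3 were alike. Pdgfrb read 651 on ES and was under the floor on the other 3 arrays.

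Of 25 other genes known to respond to ERK or to growth factors, 22 were compared between the knockout and GS. Of these, 5 were lower, beside 6.93% of all genes, and 2 were higher, beside 9.77%, and the median was -0.45. Epha2 read 702 on GS and 73.4 on the knockout, Ccnd1, the cyclin gene of entry into the cell cycle, 1894 and 238, Phlda1 419 and 138, and Junb 248 and 70.7. Epha2 and Junb were under the floor on the knockout, so they were at least 8.49-fold and 2.997-fold below GS. Jun and Egr4 were higher, Jun at 938 against 215. Between mGS and GS, 6 of 23 were higher, beside 15.3% of all genes, and 5 were lower, beside 16.5%, and the median was 0.31. Myc was under the floor on GS and at 1835 on mGS, and Epha4 under it and at 1192, while Egr2 and Egr4 were under it on mGS. Between ES and mGS, 6 of 21 were higher, beside 6.9% of all genes, and 1 lower, beside 5.13%. The AP-1 genes Fosl1, Fosl2 and Jun read 582, 420 and 987 on ES, against 80.5 and 48.2, both under the floor, and 222 on mGS. Other AP-1 genes were within 2-fold there, with Fos at 229 on ES and 348 on mGS and Junb at 593 and 443. In this comparison all 8 fibroblast markers were at least 2-fold higher on ES, with a median log2 difference of 3.70, and their part in these values was not tested.

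**Figure D4:**
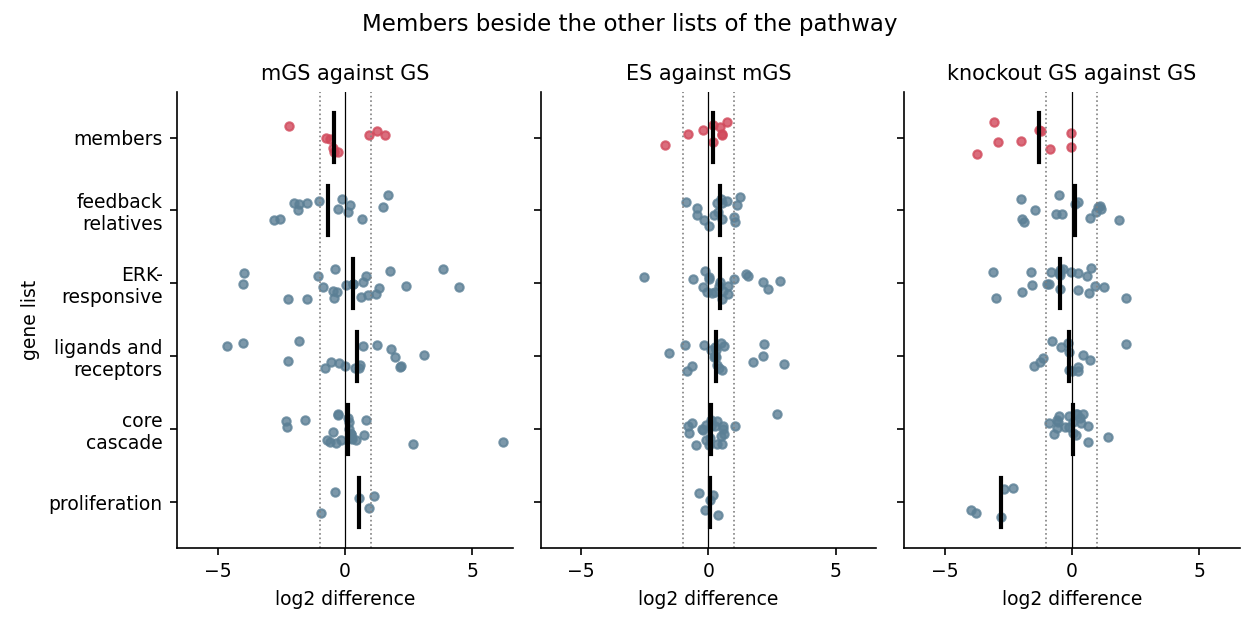
Log2 difference of each compared gene (points) and the median (black bars) for the 9 counted genes and 5 other lists in 3 comparisons, with dotted lines at 2-fold. On the knockout against GS panel the members and the proliferation genes lie left, with medians of -1.28 and -2.78, while the core cascade has a median of 0.04.

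Several measurements moved with the lower signals on the knockout array. All 5 proliferation markers measured (Mki67, Top2a, Plk1, Birc5 and Rrm2) were at least 2-fold lower there, with a median log2 difference of -2.78, and their summed signal was 4440.4 against 30773 on GS. The hybridisation controls were lower as given above, bioC by 5.39-fold and bioB by 1.71-fold against the mean of the other arrays. Of 6 fibroblast markers compared, 3 were higher on the knockout than on GS and none was lower, with a median log2 difference of 1.082. Lox was 4.73-fold higher, Col1a2 2.33-fold and Postn at least 2.35-fold. The part of any of these in the lower signals was not tested. Germ cell markers were not lower as a group, with all 6 within 2-fold of GS, and Egr1 was within 1.04-fold of GS. The leading probe set of Spred1 was within 1.04-fold too. All 6 compared probe sets of Spred1 were lower on the knockout, however, 2 of them by at least 2-fold. The mean of its probe sets gave a log2 difference of -0.95. In RNA of whole cultures, fewer cells that express a gene and less of its RNA per cell cannot be told apart.

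The knockout array was also set against mGS and ES. These comparisons reuse the same single knockout array as that with GS, so they are no independent check of its low signals. Against mGS, 6 of 9 were at least 2-fold higher on mGS, beside 17.3% of 12202 genes, and none lower, beside 21.7%. They were Dusp4, Dusp9, Spry1, Spry2, Spry4 and Etv4, with Etv4 at least 14.2-fold and Spry4 at least 12.0-fold apart. Against ES, which shares the level of the poly-A controls with the knockout and was added as a comparison after the data were seen, 6 of 9 were lower on the knockout, beside 18.8% of 12325 genes. There Dusp6 and Spry2 were 2.51-fold and 6.27-fold lower, Spry1 1.75-fold, and Egr1 4.69-fold higher.

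Likeness within the group was measured as the root mean square distance between log2 values over the 4 arrays, after raising values to the floor and centring each gene. The nearest pair was Dusp6 and Spry1, at 0.28, followed by Spry1 and Spred1 at 0.55, Spry2 and Spry4 at 0.55, and Dusp4 and Dusp9 at 0.56. Each gene entered with its leading probe set, which for Spred1 was level, unlike 4 others of that gene. The distance was not scaled to the range of a gene, so genes of small range can lie close for that reason. Among 12311 other named genes, those nearest to Spry2 were Gadd45gip1, at a distance of 0.046, Flvcr1 and Mideas. Nearest to Spry4 were H2az1, at 0.11, Fbxo5 and Csrp1, and nearest to Etv4 were Icam1, at 0.11, Deptor and Birc5. For Dusp4 they were Syngr2, at 0.20, Nusap1 and Ccnb2, and for Egr1 they were Fmr1nb, at 0.097, Mttp and Tent5c. Dusp9 had no gene as close, with B4gat1 at 0.42 and Uhrf1 and Mki67 beyond it. A distance over 4 arrays describes these cultures only, and many genes share any such order.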

How the data were processed

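The authors deposited linear intensities, 1 for each probe set on each array, with a mean of 500 once 2% was trimmed at each end. How the probes were summarised is not stated in the labels. Of 45101 probe sets, 64 controls were set aside. The log2 intensities of the other 45037 were quantile normalized over the 4 arrays, which hides a change in total RNA. Names came from GEO's platform annotation, in which 34958 listed probe sets had 1 symbol and 932 several, and were updated through the RefSeq gene table of GRCm38.p6. Each gene took its probe set of highest mean. Differences are log2 of 1 array over another, with values under the array median raised to it. The steps were tested on simulated data. Promoter windows came from RefSeq. Alternatives changed the scaling, the probe set rule, the floor and a pseudocount of 32. The genes named were all members, up to 4 genes per list and comparison with the largest differences of 2-fold or more, Etv5, Bcl6b and Lhx1, and the 3 genes nearest to each member whose values ranged over 2 or more on the log2 scale. Some list genes outside that rule (among them Dusp1, Map2k1, Sos2, Fgf4, Fgfr2, Phlda1, Junb, Fos, Id4 and Mycn) were picked after their values were seen. The members and lists were chosen with earlier results of these data known. Analyses used Python 3.11.15, numpy 2.4.6, pandas 2.3.3 and matplotlib 3.10.9.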

Additional observations from a re-analysis of the deposited data

How the results depend on the processing

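Under 9 alternatives, the 9 counted genes gave 324 differences to compare with the reported ones. Of these, 291 moved by less than the spread between probe sets of a gene (an SD of 0.45 to 0.68 on the log2 scale), 33 moved further, and no difference that was 2-fold or more as reported changed sign. Of 144 that were 2-fold or more as reported, 140 stayed so. When probe sets of a gene were averaged, 1 gene in place of 2 was higher on mGS than on GS, and 1 in place of 2 on the ES medium arrays, because Spry2 dropped below 2-fold. In that setting 5 members in place of 6 were lower on the knockout than on GS, as Spry4 went from -1.997 to -0.57, and 7 in place of 6 were higher on mGS than on the knockout, as Spred1 turned from -0.42 to 1.33. Spry1 in mGS against the knockout went under 2-fold with the values as deposited, at 0.77, and with the pseudocount, at 0.94. Bounds on the knockout depend on the floor by construction: for Etv4 against GS the log2 difference was -2.01 with the floor at the 60th percentile, -4.36 at the 30th and -5.65 without a floor. Scaling shifted all genes: with arrays centred on their medians the median of knockout against GS went from 0.07 to -0.08, and the share of higher genes among those 2-fold apart from 58.5% to 43.9%. The count of lower members was 6 there too, beside 9.22% of all genes. No paired analysis was possible because each group has 1 array. With so few arrays every value is imprecise, and signals near the floor carry little information on order.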

Other observations

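Genes that GDNF is known to induce in cultured spermatogonial stem cells went different ways on these arrays. Bcl6b, a transcriptional repressor gene, read 1009.95 on GS, 143 on mGS, 165 on ES and 442 on the knockout. The homeobox gene Lhx1 read 886 on GS and was under the floor on the other 3 arrays, at 79.5 on mGS, 4.08 on ES and 31.97 on the knockout. Both were thus highest on GS. Of the 7 genes of that list that were measured, 5 were at least 2-fold lower on mGS than on GS, beside 16.5% of all genes. The 2 others, Etv5 and Mycn, were higher, beside 15.3%. On the knockout against GS 4 of 7 were lower, beside 6.93% of all genes, and none higher, beside 9.77%. The median log2 difference was -1.19 beside 0.07 for all genes. Etv5 is also in the list of feedback genes above, and Egr2 and Egr3 are in that of ERK-responsive genes, so these counts overlap. Id4, which marks the stem cell end of the undifferentiated spermatogonia, read 2750.4 on GS and 2443 on the knockout, within 2-fold. Ret and Gfra1, the receptor genes of the same ligand, were lower on the knockout as given above.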
